A study of Drosophila melanogaster with 24 samples.

Results

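Gene expression was compared between the antenna and the first legs of adult fruit flies (Drosophila melanogaster) in 16 of the 24 samples of the series. The samples were chosen by their titles. The 8 titled antenna came from 4 female and 4 male samples, and so did the 8 titled first legs. All groups were dissected 1 to 2 hours after the adults emerged. The antenna was taken as its outermost large segment with the arista, and the leg as the part from the distal tibia outward. The series text names 1 isogenic line, WI89, while the sample descriptions give RIL 58 or RIL 89, with 2 samples of each in every group. No mutation, transgene or treatment is given for any group. The labels do not say how many flies went into a sample, nor whether replicates were separate flies. A p-value here therefore reflects the spread of these samples alone, part or all of which may be technical. The other 8 samples, from the proboscis, entered the same fit, and most of them shared arrays with the samples compared. Female proboscis replicate 2 and male proboscis replicate 1 shared an array with each other.

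Both organs are sensory appendages built from the same kind of limb primordium, and they serve different senses. The antennal segment is the main olfactory organ. Its sensilla hold neurons with odorant receptors, and their support cells secrete odorant-binding proteins into the lymph around the dendrites. The arista senses temperature. The first legs carry taste bristles, which detect food and contact pheromones, among many touch bristles on the tarsus, and in males the sex comb. The leg also holds muscle and tendon.

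The arrays had 22575 spots in 105 rows and 215 columns. No file names the gene or sequence of a spot, so spots are given by number and grid position, the tissue labels could not be checked against marker genes, and no gene group was tested. In each tissue 4 samples were labelled with Cy3 and 4 with Cy5. In the legs each sex had 2 of each dye, but 3 of the 4 female antenna samples were Cy3 and 3 of the 4 male ones Cy5, so dye and sex were not balanced in the antenna. The median signal above local background ran from 102 to 139 in the Cy3 and from 16.1 to 49.2 in the Cy5 samples of both tissues, beside median backgrounds of 47.3 to 65.7. This net signal was smaller than the local background at 62.4% to 93.8% of the spots of a Cy5 sample and at no more than 0.244% in Cy3. Identical quality marks paired the 24 samples into 12 arrays, and the channels of an array correlated across its spots at 0.628 to 0.737 on 8 arrays. The remaining 4 arrays had correlations from 0.855 to 0.969. That set of 4 held 3 of the 8 antenna samples, all female, and 1 of the 8 leg samples, also female. Neither tissue nor sex was thus balanced over the sets, and no male antenna or leg sample was in the set of 4. Each set was given its own dye effect in the model. Levels below are normalised log2 signals with the fitted dye, array set and line terms removed.

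Antenna and first legs differed at 2783 of the 22575 spots (12.3%), at a Benjamini-Hochberg adjusted p under 0.05 in limma. Of these, 1464 (6.49%) were higher in the antenna and 1319 (5.84%) were higher in the legs. Most differences were small. The median was 0.40 among spots higher in the antenna and -0.43 among those higher in the legs, on the log2 scale of antenna minus legs, against a median of 0.00 and a central 90% from -0.26 to 0.28 over all spots. A difference beyond 1 on this scale, a doubling, was passed by 188 called spots (0.833%) in favour of the antenna and by 281 (1.24%) in favour of the legs. With 1 dye effect in place of one per array set, the counts were 1624 and 979, of which 221 and 217 were beyond 1, so the larger count for the legs beyond 1 was not found in that setting. The counts beyond 1 were 357 and 432 with a normexp offset of 10, and 130 and 198 with no background correction. In whole tissue, fewer cells of a type and less RNA per cell cannot be told apart.

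The far ends of the distribution were unlike at the settings used. Beyond 3 on the log2 scale, the counts were 22 spots higher in the antenna and 21 higher in the legs. Beyond 4 they were 13 and 3, and beyond 5 they were 11 and 0. These counts depend on the background correction, and spot 8915, the leading spot of the legs, was at -5.62 with a normexp offset of 10. The antennal spots beyond 3 were bright in that organ, with a median level of 11.90 there against 6.33 in the legs, where the median of all spots over all samples was 6.28. The leg spots beyond 3 had a median level of 11.40 in the legs and still stood at a median of 8.37 in the antenna. At all 22 and all 21 of these spots, the 8 antenna values did not overlap the 8 leg values. Over all spots, 6.49% had no overlap between the tissues. A cut at 3 in these same samples leaves little room for overlap, so its absence adds no support.

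**Figure D1:**
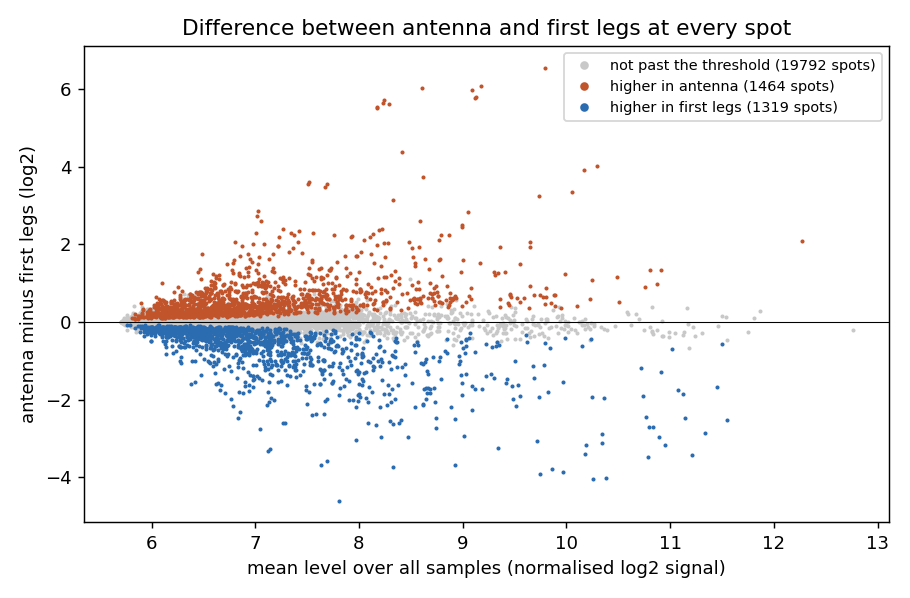
Difference between antenna and first legs on the log2 scale against the mean level over all 24 samples, 1 point per spot. The 1464 spots higher in the antenna and the 1319 higher in the first legs are coloured, and 11 antennal spots lie above 5 while no leg spot lies below -5.

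The spot with the largest antennal excess was 12188 (row 57, column 148), named by rule as the leading called spot without overlap. Its net signals were 16920, 11090, 19910 and 18390 in female antennae, replicates 1 to 4, and 6403, 6362, 4730 and 12470 in male antennae. In the legs they were 100.1, 122.9, 224.4 and 8.88 in females and 135.4, 28.1, 78.8 and 18.7 in males. Every antenna sample was far above every leg sample, and in the antenna the spot ranked between 2 and 5 among all spots by brightness. Its level was 13.00 ± 0.49 in female and 13.13 ± 0.18 in male antennae, and 6.42 ± 0.31 in female and 6.45 ± 0.27 in male legs (SD, n = 4 each). Before removal of the dye, array set and line terms, all 4 female antenna samples stood at 13.15. Their SD thus comes from the terms removed and not from a spread between samples in normalised signal. The antenna exceeded the legs by 6.55 ± 0.17 on the log2 scale (SE; limma adjusted p = 7.7e-15).

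Spot 21605 (row 101, column 105) followed. Its net signals were 8121, 5318, 8762 and 8029 in female and 3767, 3518, 2495 and 7161 in male antennae. In the legs they were 93.9, 114.2, 66.8 and 20.1 in females and 117.6, 27.7, 94.9 and 15.3 in males. The levels of the tissues did not overlap, as the naming rule required. The level was 12.55 ± 0.31 in female and 12.21 ± 0.11 in male antennae against 6.29 ± 0.05 and 6.22 ± 0.12 in the legs (SD, n = 4 each). The difference of 6.07 ± 0.12 on the log2 scale had an adjusted p of 1.05e-16 (SE; limma). At both spots the legs lay close to the median level of all spots, where background correction sets the value, so the size of the difference depends on it. It was 7.55 at spot 12188 and 7.13 at spot 21605 with a smaller normexp offset of 10 in place of 50.

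Among spots higher in the legs, spot 8915 (row 42, column 100) led. Its net signals were 1938, 2677, 3356 and 705.7 in female and 2235, 2551, 1921 and 867.9 in male legs. Antennal net signals were 142, 100.1, 65.7 and 166.7 in females and 30, 19.2, 15.1 and 95.7 in males. The lowest leg level was above the highest antennal level, as the naming rule required. Antenna minus legs was -4.60 ± 0.12 on the log2 scale (SE; limma adjusted p = 8.21e-15), with levels of 10.79 ± 0.45 and 11.05 ± 0.24 in female and male legs and 6.25 ± 0.21 and 6.36 ± 0.18 in the antennae (SD, n = 4 each). The antennal level was close to the median of all spots, so this size also depends on background correction, and it ran from -5.62 with a normexp offset of 10 to -3.94 with no correction.

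Spot 18301 (row 86, column 26) was of another kind, bright in the legs and well detected in the antenna. Net signals in the legs were 4413, 6133, 8184 and 4635 in females and 3591, 13010, 6609 and 4106 in males. In the 8 leg samples the spot ranked from 1 to 14 among all spots by brightness. In the antenna net signals were 500.1, 217.3, 607.9 and 459.9 in females and 233, 215.1, 153 and 246.6 in males. The difference was -4.06 ± 0.21 on the log2 scale (SE; limma adjusted p = 1.34e-10), from levels of 12.74 ± 0.53 and 12.54 ± 0.43 in female and male legs and 8.46 ± 0.47 and 8.39 ± 0.12 in the antennae (SD, n = 4 each). Here too the levels of the tissues did not overlap, as the naming rule required.

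**Figure D2:**
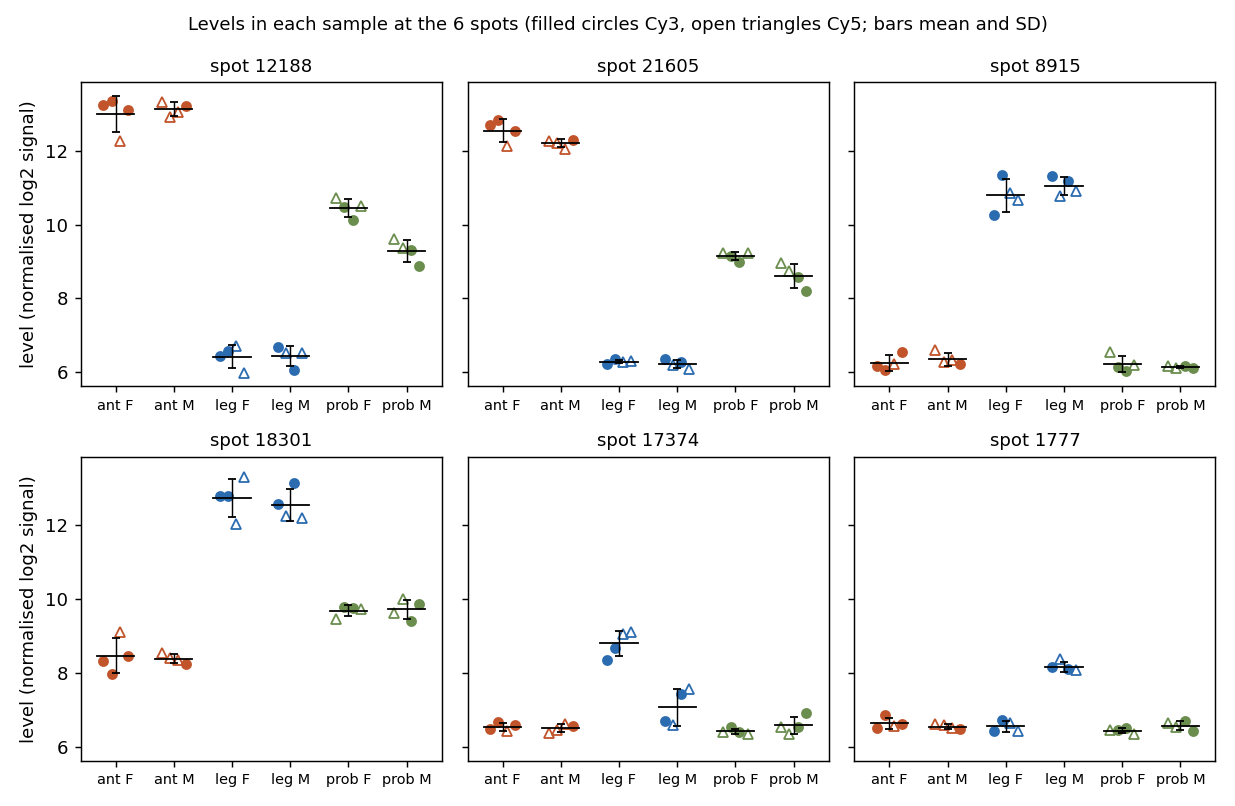
Levels (normalised log2 signal, dye, array set and line terms removed) in each of the 24 samples at the 6 named spots, with the mean and SD of each group of 4 as lines and bars. Spots 12188 and 21605 are high in all 8 antenna samples, 8915 and 18301 in all 8 leg samples, 17374 mainly in female legs and 1777 in male legs alone.

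Brighter spots were called more often. Among the dimmest 10% of spots by mean level, 0.974% differed between the tissues, and among the brightest 10% the share was 37.7%, with 19.3% higher in the antenna and 18.4% in the legs. The mean level includes the tissue in which a spot is high, so the order of brightness and the calls are not independent. Signal above background moved with these shares, and its part in them was not tested. Position on the slide made little difference, with 12.3%, 12.2% and 12.5% of spots called in the upper, middle and lower rows of the array.

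Most spots beyond 1 lay above the median level of all spots in the lower tissue. No detection threshold was set, so this does not show expression there. At the 188 antennal spots the level had a median of 8.77 in the antenna and 6.93 in the legs, and 23 of them (12.2%) had a leg level under the median of all spots. At the 281 leg spots the medians were 8.72 in the legs and 7.08 in the antenna, and 41 (14.6%) had an antennal level under that median. The leading antennal spots, near that median in the legs, are therefore not typical of the longer list.

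The difference was present in both sexes. In the common fit, antenna and legs differed at 1719 spots in females (7.61%) and 2379 in males (10.5%). Of these, 1454 were called in both in the same direction, which is 84.6% of the female and 61.1% of the male list, and 0 were called in opposite directions. The female count was 1127 without female antenna replicate 3.

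Each sex was then fitted by itself, so that spots chosen in one could be read in samples that had no part in the choice. Females alone gave 1055 spots higher in the antenna and 1035 higher in the legs (together 9.26% of spots). In males 1027 and 1019 of them (97.3% and 98.5%) had the same sign, beside 48.7% and 51.3% of all spots. Of those beyond 1 in females, all 220 antennal and all 285 leg spots kept their direction in males, with median differences of 1.33 and -1.47 on the log2 scale against 1.49 and -1.60 in females. Choosing in males (7.08% of spots called) and reading in females gave 877 of 883 antennal and 705 of 716 leg spots of the same sign. Some arrays held a female and a male sample, so the 2 fits shared slides though not samples.

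**Figure D3:**
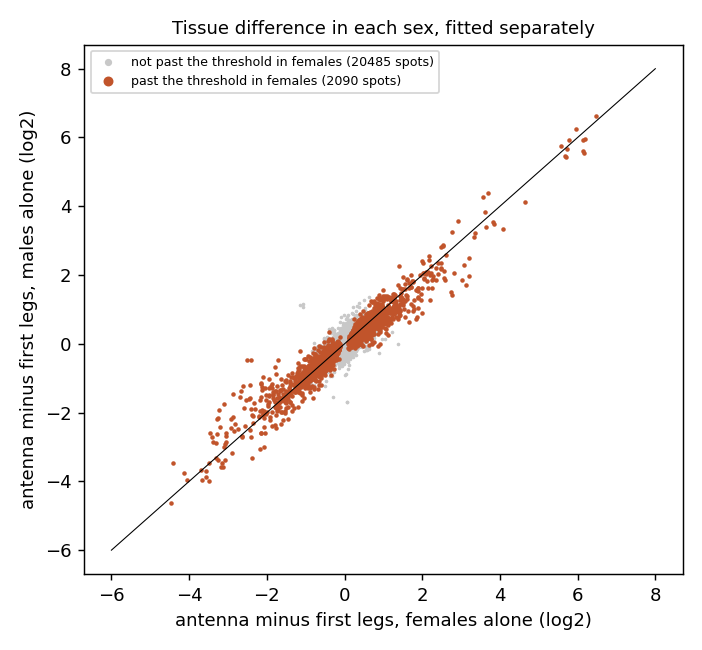
Antenna minus first legs on the log2 scale in the 12 male samples (vertical) against the 12 female samples (horizontal), each sex fitted alone, 1 point per spot, with the line of equal values. The 2090 spots called in females lie along the line, from below -4 to above 6.

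The tissue difference itself differed between the sexes at 13 spots (0.0576%) by the interaction contrast in limma, 4 higher and 9 lower in males. The count rested on few samples. It was 21 without male antenna replicate 4, 8 without female leg replicate 1 or female proboscis replicate 2, and 7 without female antenna replicate 4, male antenna replicate 1 or 2, female leg replicate 3 or male leg replicate 3. It was 6 without female leg replicate 4 or male leg replicate 4, and 5 without female antenna replicate 3 or female proboscis replicate 3. At 9 of the 13 the sexes differed more in the legs than in the antenna. The 13 hold both members of 3 pairs of repeated spots (described below), so 10 are distinct. The share over all spots is not given here, so the count of 9 is a description only.

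Spot 1777 (row 9, column 57) led these in the negative direction. Its net signals in male legs were 348.2, 501.4, 363.9 and 104.9, against 111.1, 148.2, 41.4 and 30.2 in female legs, and its antennal level was 6.63 ± 0.16 in females beside 6.54 ± 0.06 for the other sex (SD, n = 4 each). Male legs stood at a level of 8.17 ± 0.14 and female legs at 6.55 ± 0.15 (SD, n = 4 each). Antenna minus legs was -1.70 ± 0.09 in males and 0.07 ± 0.10 in females (SE, log2), a difference between the sexes of -1.77 ± 0.11 (SE; limma adjusted p = 2.33e-07). The call was lost with no dye term (-1.45, limma adjusted p = 0.0682) and in the antenna and leg samples of either dye alone, which hold 1 antenna sample of one sex (Cy3 -1.48, adjusted p = 0.996, and Cy5 -1.34, adjusted p = 0.998, limma).

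Spot 17374 (row 81, column 174) led in the positive direction. Female legs had net signals of 466, 522, 647 and 205.5 and male legs 136.5, 44.2, 176.5 and 56.9, with levels of 8.80 ± 0.35 and 7.06 ± 0.49 (SD, n = 4 each). The leg values of the sexes did not overlap after adjustment for dye, at a spot chosen by its interaction p in these same samples. Antenna minus legs was -2.26 ± 0.16 in females and -0.51 ± 0.15 in males (SE, log2), a difference of 1.75 ± 0.19 (SE; limma adjusted p = 0.000273). In the fit to the 16 antenna and leg samples alone it was 1.62 and lost its call (limma adjusted p = 0.136).

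Because signal differed widely between the dyes, the comparison was also made within each dye. Each fit held 12 samples, the proboscis included. Antenna and legs differed at 859 spots (3.81%) in Cy3 and at 1364 (6.04%) in Cy5. Of the 422 antennal and 437 leg spots called in Cy3, 419 and 437 had the same sign in Cy5, and of the 661 and 703 called in Cy5, 656 and 701 had the same sign in Cy3, beside 49% to 51% of all spots. At spot 12188 the difference was 6.52 in Cy3 and 6.49 in Cy5, and at spot 18301 it was -4.66 and -3.74, on the log2 scale. Nearly all directions called in one dye were thus found in the other. Every array held 1 sample of each dye, so the 2 fits shared all their slides though not samples. Fits by line number gave 967 spots (4.28%) in RIL 58 and 1750 (7.75%) in RIL 89. Of those called in RIL 58, 415 of 428 antennal and 538 of 539 leg spots had the same sign in RIL 89, beside 48.3% and 51.7% of all spots.

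On 2 arrays an antenna and a leg sample were hybridised together, with the dyes in opposite order. One held male antenna replicate 1 in Cy5 and male leg replicate 1 in Cy3, and the other female antenna replicate 4 in Cy3 and female leg replicate 3 in Cy5. On the first, spot 12188 had net signals of 6403 for the antenna and 135.4 for the legs, and on the second 18390 and 224.4. A fit without these 4 samples, chosen after the data were seen, called 1856 spots (8.22%). On the 2 arrays left out, the mean log ratio had the same sign at 961 of its 971 antennal and 862 of its 885 leg spots, beside 45.9% and 54.1% of all spots. Single arrays were less uniform. The sign was kept at 936 antennal and 673 leg spots on the male array and at 918 and 871 on the female array, and on both at 884 and 662, beside 17.9% and 16.7% of all spots. These ratios had no dye term removed, so on a single array tissue and dye cannot be told apart. The shares of all spots on each single array are not given here. For spots beyond 1 the mean ratio kept its sign at all 187 antennal and all 275 leg spots, as did the female array, and the male array kept it at 186 and 266.

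The proboscis, the feeding organ with taste hairs at its tip, was set on the same scale. Among the 188 spots beyond 1 and higher in the antenna, the proboscis lay nearer to the legs at 172 (91.5%), and 176 were also higher in the antenna than in the proboscis (8.49% of all spots were). At 45 of them the legs were lower than the proboscis (4.96% of all spots were). Among the 281 spots higher in the legs, it lay nearer to the legs at 90 (32%), and 205 were higher in the legs than in the proboscis (4.98% of all spots were). At 126 of them the antenna was lower than the proboscis (7.4% of all spots were). Placed on a line from the lower tissue at 0 to the higher tissue at 1, the proboscis stood above 0.75 at 9 antennal spots (4.79%) and at 72 leg spots (25.6%). The shares of all spots nearer to the legs, or above 0.75, are not given here, so those counts are a description only. These comparisons share the antenna and leg samples, and the difference between the lists was not tested.

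The named spots show the range. At spot 12188 antenna minus proboscis was 3.17 ± 0.14 and legs minus proboscis -3.38 ± 0.16 (SE, log2), so the proboscis stood midway. Spot 21605 was alike, with 3.47 ± 0.10 and -2.60 ± 0.11. At spot 8915 the proboscis stood with the antenna, at 0.13 ± 0.10 and 4.74 ± 0.11, and at spot 18301 it lay between, at -1.21 ± 0.17 and 2.85 ± 0.20. Spot 8915 thus stood out in the legs alone of the 3 organs, whereas both leading antennal spots were also higher in the proboscis than in the legs.

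**Figure D4:**
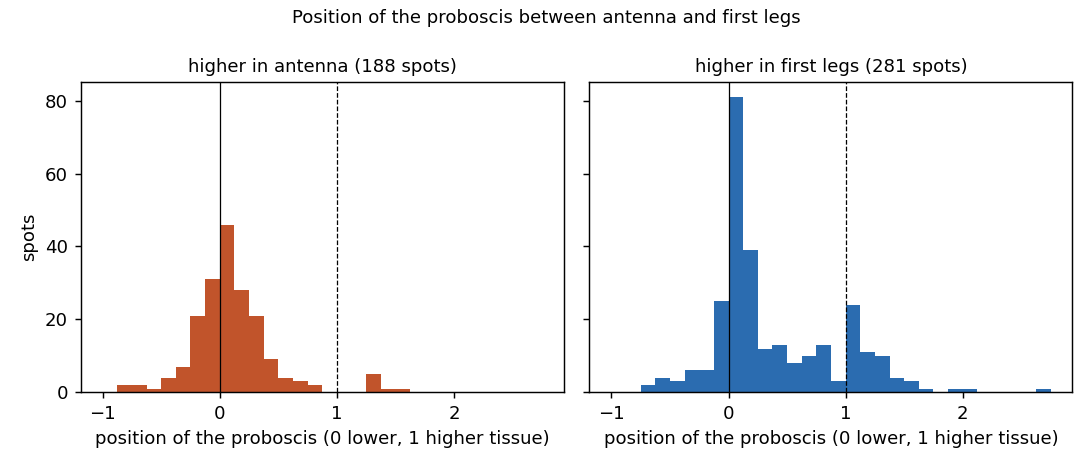
Number of spots by the position of the proboscis level on a line from the lower (0, solid) to the higher (1, dashed) of antenna and first legs, for the 188 spots beyond 1 higher in the antenna (left) and the 281 higher in the first legs (right). Most spots of both lists lie near 0, and the right panel has a further group near 1, with 72 spots above 0.75.

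Parts of the array carried the same signals at more than 1 place. From the 8 proboscis samples alone, stretches of 15 spots were matched to stretches 16900 to 17150 spots further on by the correlation, across spots, of the mean rank of their net signals, at a minimum of 0.95. This gave 2717 pairs of spots, between 16996 and 17076 apart, while distances of 8000 to 8250 and of 12000 to 12250 gave 0 matched spots. The distance was chosen after the data were seen. The antenna and leg samples had no part in the matching, so the tissue difference of the members of a pair could be compared.

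Paired spots gave nearly the same tissue difference. The median gap between members was 0.04 on the log2 scale, and 97.3% of pairs were within 0.2. Most spots differed little between the tissues, with lower and upper quartiles of -0.05 and 0.05 over all spots. Unpaired spots would therefore often be as close, and their share within 0.2 is not given here. The 97.3% alone thus does not show that the members agree. Among the 67 pairs with a member beyond 1, the median gap was 0.06 and 60 were within 0.2. Of the 401 pairs with at least 1 called member, both were called in the same direction in 251 (62.6%) and in opposite directions in 0. Of the 67 pairs with a member beyond 1, both were called in 65. The gap passed 0.5 in 5 pairs and 1 in 2 of them, which were neighbours, and exchanging their second members would give differences of -3.27 and -3.33 in one and -0.10 and 0.05 in the other. Spot 18301 had a partner 17048 spots away with -4.01 ± 0.20 (SE, log2), beside its own -4.06. The partner of spot 1777 had a difference between the sexes of -1.74 ± 0.12 and that of spot 17374 one of 1.84 ± 0.22 (SE, log2).

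The repeats bear on every count of spots. Paired spots made up 652 of the 2783 called spots (23.4%). With second members left uncounted, 1305 spots were higher in the antenna and 1154 higher in the legs, 164 and 243 of them beyond 1. The 22 and 21 spots beyond 3 became 18 and 16, the 13 and 3 beyond 4 became 10 and 2, and the 13 spots of the interaction became 10. A count of spots is therefore not a count of genes.

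**Figure D5:**
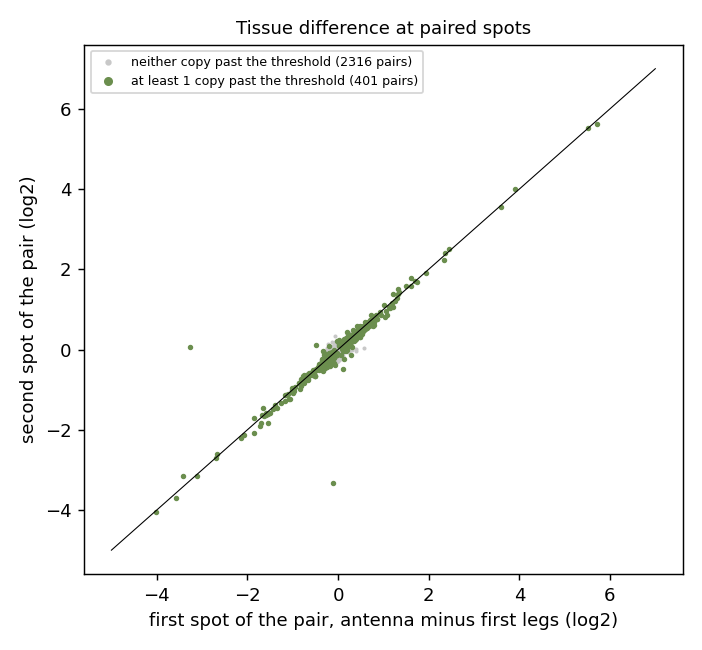
Antenna minus first legs on the log2 scale at the second spot of each of 2717 pairs (vertical) against the first (horizontal), with the line of equal values. The 401 pairs with a called member lie mostly along the line from about -4 to nearly 6, and 2 pairs lie far from it.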

How the data were processed

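Each sample has 1 scanner file of spot and background brightness, given as linear intensity per the file headers, for 1 dye channel and not normalised. The files also give a quality score per spot, per the file headers, which explain no code. The deposited value table holds values equal to the natural log of net signal (mean signal less mean background), within 9e-08 of the scanner files, with column medians of 2.78 to 5.00. RNA was amplified before labelling, per the labels. The quantification program is not named in the sources used here.

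Background was corrected with normexp (offset 50) on mean signal and background, values were taken to log2 and quantile normalised over 24 samples. One limma model (limma 3.58.1, statmod 1.5.0, R 4.3.3) held 6 group means, dye, array set, dye by array set and line number, with the array as a random block (correlation 0.552, 14 residual degrees of freedom) and a variance trend. Sets were divided at the widest gap in channel correlation (0.118, next 0.0842). Tests were two-sided, with Benjamini-Hochberg adjustment over 22575 spots. The fit and the matching of spots were tested on simulated data. Fits to 12 samples of 1 sex, dye or line kept all 3 tissues and the terms that could be estimated. The plan named the antenna and leg samples only, and fit residuals for the matching of spots, for which proboscis signals were used so that the compared samples stayed out of it. Figures used Python 3.11.15 and matplotlib 3.10.9.

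Named spots were the 2 largest rises and 2 largest falls among called spots without overlap, and the smallest interaction p in each direction. The comparison, the division of the arrays and the rules were chosen with earlier results of these data known. The planned gene lists and markers were not used, because spots carry no gene names.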

Additional observations from a re-analysis of the deposited data

Results flagged for a closer look

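The tissue difference differed between males and females at 13 spots by the interaction contrast (limma, adjusted p under 0.05). At an unadjusted p under 0.05 there were 1248 of 22575 spots. That share is close to the 0.05 that would pass if no spot differed. The smallest p in each direction was at spot 1777, with antenna minus legs in males minus females of -1.77 on the log2 scale, and at spot 17374, with 1.75. At spot 1777 all 4 male leg samples exceeded all 4 female leg samples in level, and at spot 17374 all 4 female leg samples exceeded the male ones. The 2 spots were chosen by their interaction p in these same samples. This separation follows largely from that choice and is a description only. Both signs also appeared in partner spots at a distance on the array. The partners were read in the same samples, so they give no separate evidence on the sexes. No sample stood apart from its group of 4 at the 6 named spots by Dixon's criterion in any of 24 groups, where chance would mark about 1 in 20. The levels tested had the fitted terms removed, at spots chosen by rule, so that rate may not hold. The check therefore cannot show that no sample stood apart.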

How the results depend on the processing

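The signs at the 6 named spots held in every setting and with each of the 24 samples left out. Their calls held with each sample left out, and were lost in other settings at spot 18301 in the Cy3 samples alone (limma adjusted p = 0.0547), at spot 1777 in 3 and at spot 17374 in 5 of the settings run. The count of 2783 was 2124 to 2874 with 1 sample left out, 1006 with the array as a fixed block, 1551 with no dye term, 1384 in the set of 8 arrays, and 149 and 747 in the 8 Cy3 and the 8 Cy5 samples of antenna and legs, fits of fewer samples. With 1 dye effect for all arrays it was 2603, split 1624 to 979, of which 221 and 217 passed 1, against 188 and 281, so the excess of leg spots beyond 1 was not found there. The female count of 1719 was 1127 to 1931 with 1 sample left out, then 622, 800, 453, 84 and 212 in the same settings, 917 in the 16 samples and 1033 without the 2 arrays of antenna against legs. The male count of 2379 was 1904 to 2396, then 777, 1033, 5 and 510 (fixed block, no dye term, Cy3, Cy5), 1529 with quality weights and 1224 with scaling to 1 median. The interaction count of 13 was 5 to 21 with 1 sample left out, 8 with 1 dye effect, with the replicate block or without second copies, 3 with the fixed block, 5 with quality weights, cyclic loess, Cy3 alone or without the 2 arrays, 4 with median scaling or the 16 samples, 2 without array block or dye term, 1 in Cy5 and 38 in the 8 arrays, which hold 1 female antenna sample. With 1 dye, the male Cy3 and female Cy5 antenna are 1 sample each, assumed to vary like the other groups, and the female, male and interaction counts rest on that. The cause of these changes was not tested beyond the fewer samples in some fits. Same-numbered antenna and leg samples of a sex had correlated deviations in some pairs and not in others (-0.488 to 0.597 over 8 pairs, 4 above 0.1, own number best in 3). The highest was of male samples 1, which share an array. The numbers were not taken as pairs, and with the replicate block the tissue count was 2876. The fits without second copies, without the 2 arrays, without marked spots and on median signal were chosen after seeing the data. The filter on net signal removed no spot. Cy5 signal below background limits what dim spots can show.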
